A study of Mus musculus with 64 samples.

Results

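The prefrontal cortex (PFC) of mice given a single dose of psilocybin was compared between 3 h and 4 weeks after the injection. The comparison uses 15 of the 64 libraries of the series, 8 at 3 h and 7 at 4 weeks; an eighth 4-week library, number 3, held 200066 counted reads and was left out. All mice were male C57BL/6J, chow-fed and group-housed, and were injected intraperitoneally at 10 weeks of age with 3 mg/kg psilocybin or with isotonic saline. They had received sham injections of saline on the 3 days before. Mice were decapitated in the morning, 4 h after light onset, so the 4-week mice were 14 weeks old when killed. The 8 saline mice of each time point, dissected in the same way, give the time difference without psilocybin, and the hypothalamus of the same psilocybin-treated mice gives it in another region. RNA of the PFC was extracted in 2 pools, pool C with mice 1 to 4 of each group and pool D with mice 5 to 8. The number of a mouse is also its cage in the labels, so that a cage number recurs in each of the 4 groups of treatment and time. The time since injection, the age and the day of harvest change together in this design and cannot be told apart.

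Psilocybin is converted in the body to psilocin, an agonist of serotonin receptors, of which the 5-HT2A receptor of cortical pyramidal neurons is the one most closely tied to its psychoactive action. An injection and handling also release corticosterone, which enters the brain and acts through the glucocorticoid receptor, a transcription factor. Immediate early genes are switched on within minutes of strong neuronal activity without new protein synthesis and their transcripts decay within hours, and the glucocorticoid targets and the core clock genes form further programs of transcription that change over hours.

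The 15 libraries held between 9473354 and 33019782 counted reads. Slc17a7, the vesicular glutamate transporter of cortical excitatory neurons, lay between 1059 and 1543 CPM (counts scaled to library size by the trimmed mean of M values) in them and at most at 102 CPM in the hypothalamus, and oxytocin (Oxt) at most at 1.39 CPM against at least 67.7 CPM there, as the region labels say. The 3-hour library 7 had a voom quality weight, which falls as a library departs from its group, of 0.120, the lowest of the 15, so results are also given without it. Among the 4-week libraries, numbers 1, 2 and 4 (pool C) had summed levels of 9 nuclear-retained long RNAs between 8520 and 10835 CPM against 4845 to 6192 CPM in numbers 5 to 8 (pool D). At 3 h the same sum was 4246 to 6809 CPM in pool C and 3642 to 4858 CPM in pool D. The saline libraries of 4 weeks were split in the same way, with 8192 to 9986 CPM in pool C and 4696 to 6250 CPM in pool D. Those of 3 h were not, with 2979 to 7438 CPM in pool C and 3983 to 6093 CPM in pool D. Among these, number 4 of pool C had the lowest sum of both pools, and number 5 had the highest of pool D.

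Of 18971 genes tested, 1131 differed between 3 h and 4 weeks after psilocybin at an adjusted p under 0.05, which is 5.96% (edgeR quasi-likelihood test with extraction pool as covariate). The 513 genes that were higher at 3 h made up 2.70% and the 618 that were lower made up 3.26%. Most differences were small: 50 called genes were higher and 148 were lower by more than 1 on the log2 scale. The median absolute log2 fold change of the called genes was 0.50. The signed median over all tested genes, which the scaling of the libraries holds near 0, was 0.0080. Values of the 2 groups did not overlap in 183 genes (0.965%), of which 157 were called. Without the 3-hour library 7, 1292 of 18984 genes were called (6.81%), 923 of them called with it as well. All 1131 genes kept their direction without it. The count fell to 706 without the 4-week library 4, and it was 2143 when library 5 of the hypothalamus of psilocybin-treated mice at 4 weeks, which is in neither group, was left out. Within pool C alone, 314 genes were called (1.66%), within pool D alone 257 (1.35%), and 1117 of the 1131 genes had the same sign in both pools. The 1131 genes were chosen on these same libraries, so their kept direction in the pools and without library 7 is not separate support. In edgeR no gene passed the test of whether the time difference itself differed between the pools, where 1162 genes had an unadjusted p under 0.05.

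**Figure D1:**
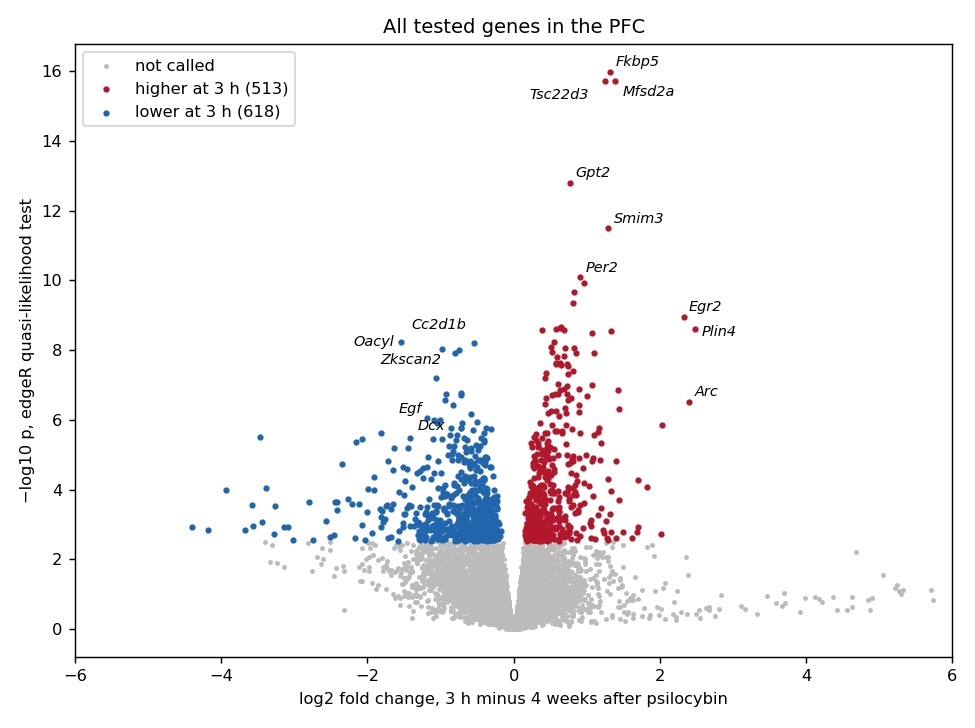
Log2 fold change (3 h minus 4 weeks after psilocybin, horizontal axis) and −log10 p of the quasi-likelihood test (vertical axis) for each tested gene, with 8 genes beyond a log2 fold change of 6 not drawn. The 513 genes higher at 3 h are red, the 618 lower ones blue, and Fkbp5, Tsc22d3 and Mfsd2a lie at the top.

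Fkbp5 and Tsc22d3, the genes with the smallest p-values, are targets of the glucocorticoid receptor and were higher at 3 h. Of 30 genes listed as such targets, 21 were called, all higher at 3 h, beside 2.70% of all genes, and the list's median log2 fold change was 0.68 against 0.0080 over all genes. Fkbp5, a co-chaperone that restrains the glucocorticoid receptor (chr17:28399094-28517524 on GRCm38, minus strand), lay from 48.9 to 104 CPM (median 67.7) at 3 h and from 24.3 to 39.4 CPM (median 26.4) at 4 weeks. The groups did not overlap, and the log2 fold change was 1.32 ± 0.11 (adjusted p = 1.21e-12), where ± gives the standard error with n = 8 and n = 7 here and below. Tsc22d3, which encodes the glucocorticoid-induced leucine zipper protein, lay from 109 to 144 CPM (median 127) at 3 h and from 47.2 to 58.8 CPM (median 56.6) at 4 weeks. It differed by 1.25 ± 0.11 (adjusted p = 1.21e-12), and every 3-hour library was above every 4-week library.

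Plin4, a coat protein of lipid droplets, had the largest difference among the called members of the list, 2.48 ± 0.35 (adjusted p = 3.09e-06), with 7.27 to 13.4 CPM at 3 h and 0.769 to 2.79 CPM at 4 weeks. It overlaps the more abundant Hdgfl2 on the opposite strand, and although the libraries were stranded and the authors counted only read pairs whose ends mapped to 1 strand, the setting that ties a read to the strand of the gene is not given in the sources used here, so reads of the 2 genes may not be told apart. Slc2a1, the glucose transporter of the blood-brain barrier, was higher by 0.69 ± 0.10 (adjusted p = 8.76e-06). Other called members were Hif3a (1.42), Sult1a1 (1.44), Cebpd (1.43), the metallothioneins Mt2 (1.19) and Mt1 (0.91), Fam107a (0.73) and Nfkbia (0.62), all as log2 fold changes. The 9 members that were not called had positive values too, among them Sgk1 at 0.29 and Pdk4 at 0.14. The value of another, Lcn2 (lipocalin-2), rested on the 3-hour library 5, with 48.8 CPM against at most 1.87 CPM in the other 14 libraries. The summed level of the 30 genes was between 2383 and 3012 CPM at 3 h and between 1457 and 1799 CPM at 4 weeks, with no overlap. List members were also counted with DESeq2-type size factors, with the cage number as a replicate block, with an offset for gene length and GC content, by voom with quality weights on 62 and 61 libraries, by edgeR on 61 libraries and without library 7, and under these 7 settings 21 to 25 glucocorticoid targets were called. Within pool C and within pool D 13 each were called, none of them lower. Under the remaining alternatives list members were not counted.

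Further genes among the 12 with the smallest p-values that were higher at 3 h have roles in transport, metabolism and glia. Mfsd2a, a lipid transporter of brain endothelium at the blood-brain barrier, lay from 34.4 to 53.0 CPM (median 37.7) at 3 h and from 12.4 to 18.4 CPM (median 15.3) at 4 weeks, with a difference of 1.39 ± 0.12 (adjusted p = 1.21e-12). The highest Mfsd2a value was that of the 3-hour library 7, and without it the difference was 1.32 (adjusted p = 1.12e-11). Gpt2, a mitochondrial alanine aminotransferase, lay from 80.0 to 104 CPM (median 99.6) at 3 h and from 47.8 to 65.3 CPM (median 55.8) at 4 weeks and differed by 0.77 ± 0.08 (adjusted p = 7.46e-10). Smim3, a small membrane protein, differed by 1.29 ± 0.15 (adjusted p = 1.21e-08). Etnppl, an astrocyte enzyme that breaks down phosphoethanolamine, differed by 0.96 ± 0.12 (adjusted p = 3.12e-07), and Rin2, a Rab5 exchange factor, by 0.81 ± 0.11 (adjusted p = 9.31e-07). The groups did not overlap in any of these 5. P4ha1, a subunit of the collagen prolyl hydroxylase, was higher by 0.63 ± 0.09 (adjusted p = 3.09e-06). Gpr17, a receptor of maturing oligodendrocyte precursors, lay from 72.4 to 99.4 CPM (median 89.9) at 3 h and from 48.0 to 72.3 CPM (median 56.2) at 4 weeks, so that the groups were only just apart, with a difference of 0.65 ± 0.09 (adjusted p = 3.09e-06).

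**Figure D2:**
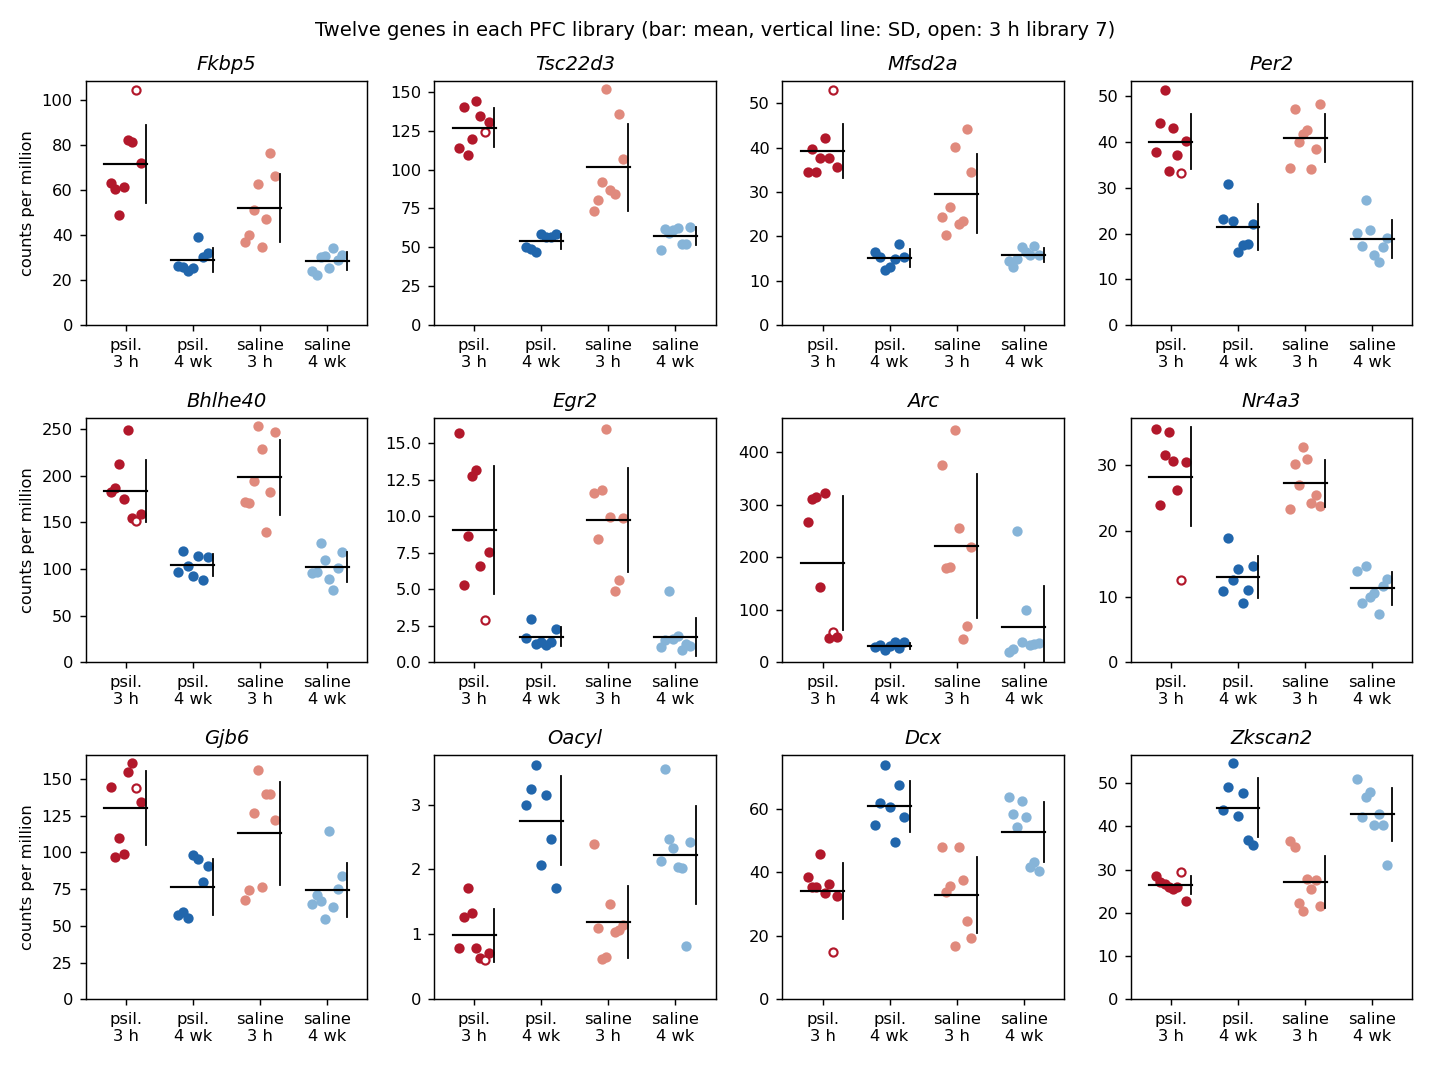
CPM (vertical axes, starting at 0) of 12 genes in each PFC library of the 4 groups, 1 point per library, with the mean as a bar, the SD as a vertical line and the 3-hour library 7 as an open circle. Fkbp5, Tsc22d3, Mfsd2a, Per2, Bhlhe40 and Arc are higher in every 3-hour psilocybin library than in every 4-week psilocybin library, and Oacyl, Dcx and Zkscan2 are lower.

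Immediate early genes formed the second group that was higher at 3 h. Of 28 listed genes, 17 were called, all higher at 3 h, beside 2.70% of all genes, with a list median of 0.77 and 27 positive values. The promoters of Egr2, Nr4a3, Per1 and Dio2, all higher at 3 h and described below, are printed here to show where letters known as binding elements of activity-dependent and clock factors lie in them. They are the 250 bases before a RefSeq transcript start on GRCm38.p6, 5′ to 3′ in the direction of the gene. The window printed for a gene is the first by position that holds every element marked for that gene. Capitals mark an E-box (CACGTG, the site of clock and related factors), the cAMP response element in full (CRE, TGACGTCA) or its first 5 bases (TGACG), which a full element contains, and the serum response element (SRE), each on either strand.
Egr2: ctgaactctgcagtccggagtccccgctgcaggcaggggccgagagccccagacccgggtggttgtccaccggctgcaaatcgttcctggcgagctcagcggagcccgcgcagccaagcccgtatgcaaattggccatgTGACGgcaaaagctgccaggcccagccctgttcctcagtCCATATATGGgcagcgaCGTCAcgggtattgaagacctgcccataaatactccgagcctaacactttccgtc
Nr4a3: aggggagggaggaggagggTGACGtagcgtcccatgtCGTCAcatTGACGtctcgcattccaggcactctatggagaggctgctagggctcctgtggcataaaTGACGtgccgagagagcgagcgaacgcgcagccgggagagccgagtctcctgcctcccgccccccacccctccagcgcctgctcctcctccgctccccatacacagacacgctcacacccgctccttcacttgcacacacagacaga
Per1: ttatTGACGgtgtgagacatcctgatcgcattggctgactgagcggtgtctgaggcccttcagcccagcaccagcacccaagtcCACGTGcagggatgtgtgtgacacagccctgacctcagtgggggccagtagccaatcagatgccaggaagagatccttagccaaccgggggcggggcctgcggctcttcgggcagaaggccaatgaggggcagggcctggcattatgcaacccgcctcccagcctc
Dio2: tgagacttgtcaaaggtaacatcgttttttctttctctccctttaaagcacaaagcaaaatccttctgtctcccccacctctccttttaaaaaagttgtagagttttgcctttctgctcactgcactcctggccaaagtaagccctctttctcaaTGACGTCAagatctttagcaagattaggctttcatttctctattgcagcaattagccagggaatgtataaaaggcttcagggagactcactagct

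The Egr2 window (chr10:67537619-67537868, plus strand) is 1 of 5 for this gene and lies inside the gene as the files annotate it; it held 1 SRE and 2 copies of TGACG. The Nr4a3 window (chr4:48045055-48045304, plus strand) held 4 copies of TGACG. The Per1 window (chr11:69098699-69098948, plus strand, 1 of 2) held 1 E-box and 1 TGACG, and the Dio2 window (chr12:90739039-90739288, minus strand) held 1 full CRE. Of 32841 promoter windows of the same length, 6.02% held an E-box, 1.55% a full CRE, 17.8% a TGACG and 1.47% an SRE. The printed windows were chosen for holding their elements, so their content cannot be compared with these shares. Counted by gene, over any of its windows, a TGACG was found in 32.6% of the 402 genes higher at 3 h with a window, in 26.3% of the 445 lower ones and in 27.9% of the 13103 tested genes with a window. For TGTTCT, a part of the glucocorticoid response element, the shares were 13.7%, 11.5% and 13.7%. They were 10.9%, 9.9% and 9.1% for the E-box, 3.5%, 2.9% and 2.8% for the full CRE and 2.0%, 1.6% and 1.4% for the SRE. These are matches of letters and not sites shown to be bound.

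Egr2, a zinc finger transcription factor, lay from 2.86 to 15.7 CPM (median 8.10) at 3 h and from 1.21 to 2.94 CPM (median 1.38) at 4 weeks. The lowest 3-hour value, in library 7, was below the highest 4-week value, and the difference was 2.33 ± 0.32 (adjusted p = 2.08e-06). Arc, an effector protein at synapses whose transcript is carried into dendrites, spread widely at 3 h and little at 4 weeks, from 46.2 to 322 CPM (median 206) at 3 h and from 23.4 to 37.9 CPM (median 30.4) at 4 weeks. The 3 lowest values at 3 h were those of libraries 6, 7 and 8, all of pool D, yet the groups did not overlap and the difference was 2.40 ± 0.41 (adjusted p = 9.06e-05). Fos, part of the AP-1 transcription factor, lay from 6.34 to 28.7 CPM (median 17.9) at 3 h and from 3.28 to 8.52 CPM (median 5.16) at 4 weeks and overlapped, with a difference of 1.70 ± 0.39 (adjusted p = 0.00390). The log2 fold change of Arc was 3.21 within pool C and 1.83 within pool D.

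Nr4a3, an orphan nuclear receptor, lay from 12.5 to 35.5 CPM (median 30.6) at 3 h and from 9.03 to 18.8 CPM (median 12.5) at 4 weeks, where the lowest 3-hour value was again that of library 7. The difference was 1.10 ± 0.17 (adjusted p = 7.79e-06) with library 7 and 1.21 (adjusted p = 3.47e-07) without it. Ier5, a regulator of the heat shock response, differed by 0.69 ± 0.10 (adjusted p = 3.09e-06) without overlap. Dusp6, a phosphatase that turns off the ERK kinases, differed by 0.90 ± 0.15 (adjusted p = 5.31e-05). Junb (1.29), Egr1 (1.15), Egr4 (1.08), Nr4a1 (0.95) and Fosb (0.90) were called as well. Members that did not pass were Npas4 (0.43), Egr3 (0.39), Nr4a2 (0.45) and Jun (-0.08). Without library 7 the count was also 17, and it was 9 within pool C and 6 within pool D.

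Among 32 slower activity-induced effector genes, 6 were called, all higher at 3 h, beside 2.70% of all genes, with a list median of 0.23. Dusp4, another phosphatase of ERK kinases, differed by 1.07 ± 0.18 (adjusted p = 4.11e-05), and Gpr3, a receptor that raises cAMP, by 0.84 ± 0.20 (adjusted p = 0.00505). Gpr3 overlaps Cd164l2, of about the same level, on the opposite strand. Bdnf, the neurotrophin, lay from 27.8 to 50.6 CPM (median 42.9) at 3 h and from 27.6 to 40.0 CPM (median 29.4) at 4 weeks with overlap and differed by 0.37 ± 0.09 (adjusted p = 0.00700). Tiparp (0.55), Rgs2 (0.27) and Per1 completed the 6. Homer1 (0.44), Vgf (0.49) and Nptx2 (0.10) did not pass. By voom with quality weights 13 of the 32 were called, all higher, with the offset for gene length and GC content 8 were higher and 1 was lower, and without library 7 8 were higher.

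Of 27 circadian clock genes, 4 were called, all higher at 3 h, beside 2.70% of all genes. Both groups were killed at the same hour of the light phase. Per2, a core repressor of the clock, lay from 33.3 to 51.4 CPM (median 39.0) at 3 h and from 16 to 30.8 CPM (median 22.1) at 4 weeks, without overlap, and differed by 0.90 ± 0.11 (adjusted p = 2.56e-07). Bhlhe40, a repressor that binds E-boxes, lay from 151 to 249.6 CPM (median 179) at 3 h and from 87.9 to 119.7 CPM (median 103) at 4 weeks, also without overlap, and differed by 0.82 ± 0.11 (adjusted p = 5.05e-07). Per1, which is a glucocorticoid target and an activity-induced gene too, lay from 63.7 to 110.4 CPM (median 85.4) at 3 h and from 41.2 to 63.7 CPM (median 49.8) at 4 weeks and differed by 0.73 ± 0.12 (adjusted p = 6.37e-05). The fourth, Nr1d1, which encodes REV-ERBα, differed by 0.24 ± 0.07 (adjusted p = 0.0432), and its value without library 7 was 0.22 (adjusted p = 0.0650). With the replicate block by cage it was 0.23 (adjusted p = 0.0542). Nr1d1 overlaps the more abundant Thra on the opposite strand. The other clock genes did not pass, with Arntl at -0.02, Clock at 0.02, Dbp at 0.06 and Per3 at -0.16, and the list median was 0.08.

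**Figure D3:**
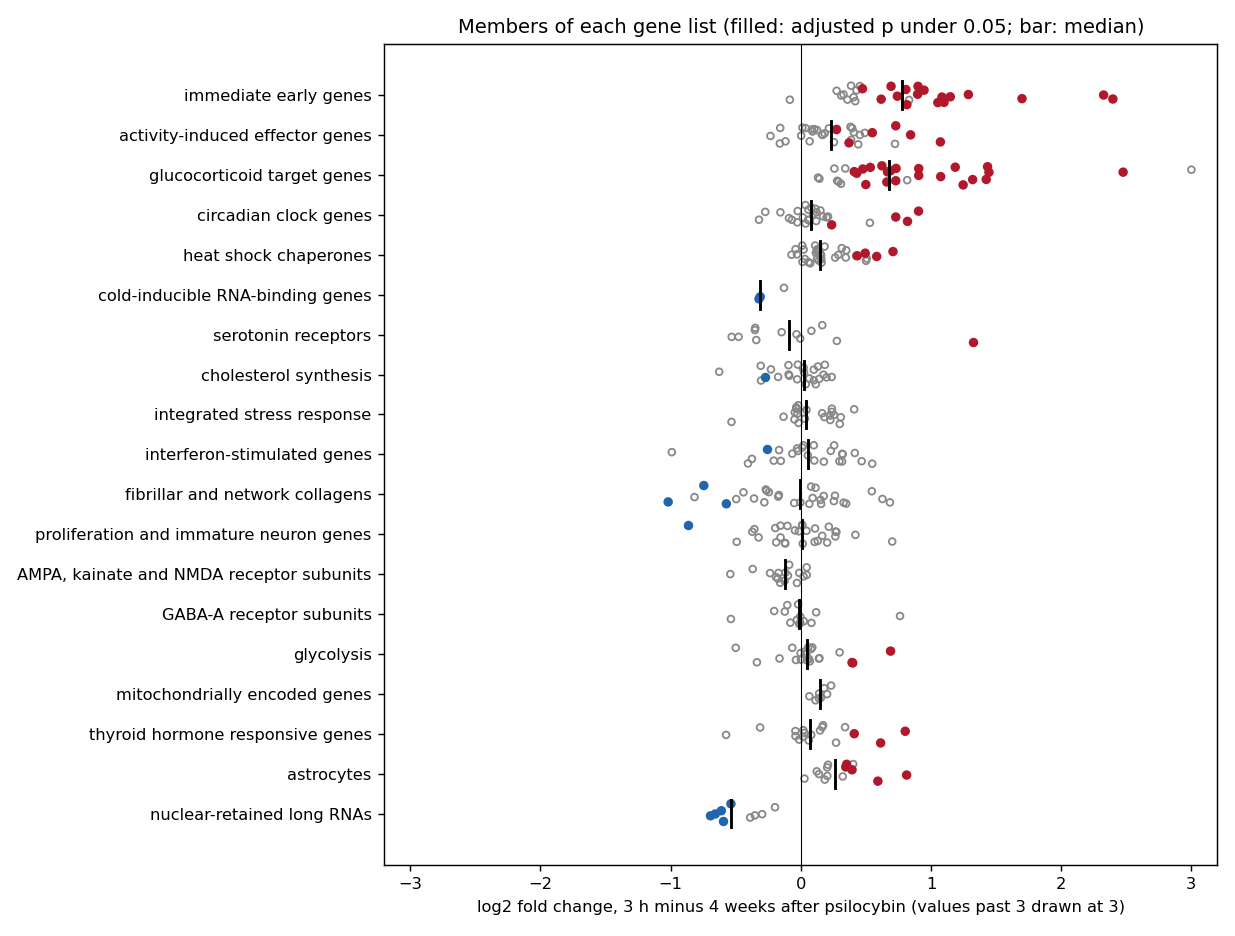
Log2 fold change (3 h minus 4 weeks after psilocybin, horizontal axis) of each tested member of 19 gene lists, with called members filled, red if higher and blue if lower at 3 h, and the list median as a bar. Glucocorticoid targets (median 0.68) and immediate early genes (0.77) lie to the right, and nuclear-retained long RNAs (-0.54) to the left.

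The 12 lower genes with the smallest p-values are in none of the gene lists. Oacyl, a predicted acyltransferase with few reads, lay from 0.614 to 1.72 CPM (median 0.793) at 3 h and from 1.72 to 3.61 CPM (median 3.00) at 4 weeks, with the highest 3-hour value just below the lowest 4-week value and a difference of -1.54 ± 0.23 (adjusted p = 5.61e-06). Cc2d1b, which takes part in membrane repair, lay from 15.6 to 22.3 CPM (median 19.7) at 3 h and from 23.5 to 34.7 CPM (median 26.8) at 4 weeks without overlap and differed by -0.54 ± 0.08 (adjusted p = 5.73e-06). The zinc finger genes Zkscan2 and Zfp28 differed by -0.75 ± 0.11 (adjusted p = 7.09e-06) and -0.58 ± 0.10 (adjusted p = 1.76e-04), both without overlap. Zkscan2 lay from 22.8 to 29.5 CPM (median 26.4) at 3 h and from 35.6 to 54.7 CPM (median 43.9) at 4 weeks.

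Kinases and signalling genes were among these 12 as well. Hunk, a neuronal kinase, differed by -0.72 ± 0.12 (adjusted p = 6.34e-05), and Srpk3, a kinase of splicing factors, by -1.09 ± 0.20 (adjusted p = 2.50e-04). Egf, epidermal growth factor, differed by -1.18 ± 0.22 (adjusted p = 2.22e-04), at medians of 1.30 CPM at 3 h and 2.72 CPM at 4 weeks. Pla2g4e, a phospholipase and acyltransferase that makes precursors of the endocannabinoid anandamide, lay from 5.31 to 8.44 CPM (median 6.79) at 3 h and from 9.84 to 19.8 CPM (median 12.5) at 4 weeks without overlap and differed by -1.01 ± 0.18 (adjusted p = 2.44e-04). Creb5, a transcription factor of the ATF and CREB family, differed by -0.94 ± 0.16 (adjusted p = 8.34e-05). The other 3 were Nemp2 (-0.81), Cercam (-0.93) and Traf3ip2 (-0.73). Traf3ip2 overlaps E130307A14Rik, which has more reads, on the opposite strand.

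Dcx, doublecortin, a microtubule protein of migrating and immature neurons, was the 1 called gene of 29 for proliferation and immature neurons, a share near the 3.26% of all genes called lower. It lay from 15 to 45.7 CPM (median 35.4) at 3 h and from 49.4 to 73.8 CPM (median 60.6) at 4 weeks, without overlap, and differed by -0.87 ± 0.17 (adjusted p = 4.92e-04). The lowest value was that of library 7, and without it the difference was -0.76 (adjusted p = 0.00160). Of 29 collagens, 3 were called, all lower at 3 h, with differences for Col11a1 of -0.75 ± 0.21 (adjusted p = 0.0222), Col5a1 of -0.57 ± 0.18 (adjusted p = 0.0394) and Col2a1 of -1.02 ± 0.32 (adjusted p = 0.0401). Their list had a median of -0.0038, and without library 7, which had the highest summed collagen level at 3 h, 6 collagens were called and all 6 were lower. The 3 calls compare with 3.26% of all genes called lower. By voom with quality weights 8 collagens were lower, with the offset for gene length and GC content 5 and by edgeR on 61 libraries 4. With the cage number as a replicate block 1 collagen was called, and the values were -0.56 (adjusted p = 0.0581) for Col5a1 and -1.003 (adjusted p = 0.0686) for Col2a1. Within pool C 1 collagen was called and within pool D none, at list medians of -0.28 and 0.14.

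Astrocyte markers and nuclear-retained long RNAs also held called genes. In bulk tissue, fewer cells of a type and less RNA per cell cannot be told apart. Of 14 astrocyte markers, 5 were called, all higher at 3 h, against 2.70% of all genes, and all 14 were positive with a median of 0.26. Gjb6, the connexin-30 of astrocyte gap junctions, lay from 96.8 to 161 CPM (median 139) at 3 h and from 55.6 to 98.2 CPM (median 79.6) at 4 weeks and differed by 0.81 ± 0.13 (adjusted p = 1.97e-05). Htra1, a secreted protease, differed by 0.59 ± 0.11 (adjusted p = 4.17e-04), Aldoc, the aldolase of astrocytes, by 0.39 ± 0.10 (adjusted p = 0.0115), and Fgfr3 by 0.35 ± 0.08 (adjusted p = 0.00593). The summed astrocyte level was 7847 to 11755 CPM at 3 h and 6634 to 9384 CPM at 4 weeks. In pool C it was 7847 to 9288 against 6634 to 7254 CPM, and in pool D 8944 to 11755 against 8113 to 9384 CPM.

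The lists of microglia, oligodendrocyte precursors, myelin and endothelium had 1 to 3 called genes each, all higher at 3 h, beside 2.70% of all genes called higher. Of 14 microglial markers, 2 were higher at 3 h, and 2 to 8 under the 7 other settings in which list members were counted, while none was called within pool C and 1 within pool D. Selplg differed by 0.55 ± 0.12 (adjusted p = 0.00219) and Tmem119 by 0.55 ± 0.12 (adjusted p = 0.00260). The oligodendrocyte precursor list had 3 of 10 called (Gpr17, Tmem100 at 0.54 and Neu4 at 0.33), and without library 7 Neu4 was 0.30 (adjusted p = 0.0502). The list of oligodendrocyte and myelin genes had 2 of 21 called, both higher, Gpr17 among them, and Cldn11, a tight junction protein of myelin, differed by 0.49 ± 0.14 (adjusted p = 0.0215). The median of the myelin list was 0.61 within pool C, where 8 were called, and -0.34 within pool D. Summed myelin genes were 3459 to 3630 CPM in the 3 libraries of pool C at 4 weeks, below each of the other 12 libraries (4453 to 7585 CPM). Endothelium had 1 called of 14, Mfsd2a.

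The nuclear-retained long RNAs went the other way, with 5 of 9 lower at 3 h beside 3.26% of all genes, none higher, and a median of -0.54. Snhg11 differed by -0.59 ± 0.16 (adjusted p = 0.0162), Meg3, an imprinted transcript, by -0.66 ± 0.18 (adjusted p = 0.0206), Miat by -0.61 ± 0.17 (adjusted p = 0.0243) and Malat1, an abundant RNA of nuclear speckles, by -0.69 ± 0.22 (adjusted p = 0.0459). Malat1 lay from 385 to 742 CPM (median 526) at 3 h and from 552 to 1529 CPM (median 731) at 4 weeks, and its highest values were those of 4-week libraries of pool C. With the replicate block by cage 4 of the 9 were called. Within pool C 1 of the 9 was called and within pool D none, at medians of -0.69 and -0.41. When gene length and GC content were entered as an offset, 3 of 9 were called and the median was -0.27. The part of these RNAs in the other differences was not tested.

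**Figure D4:**
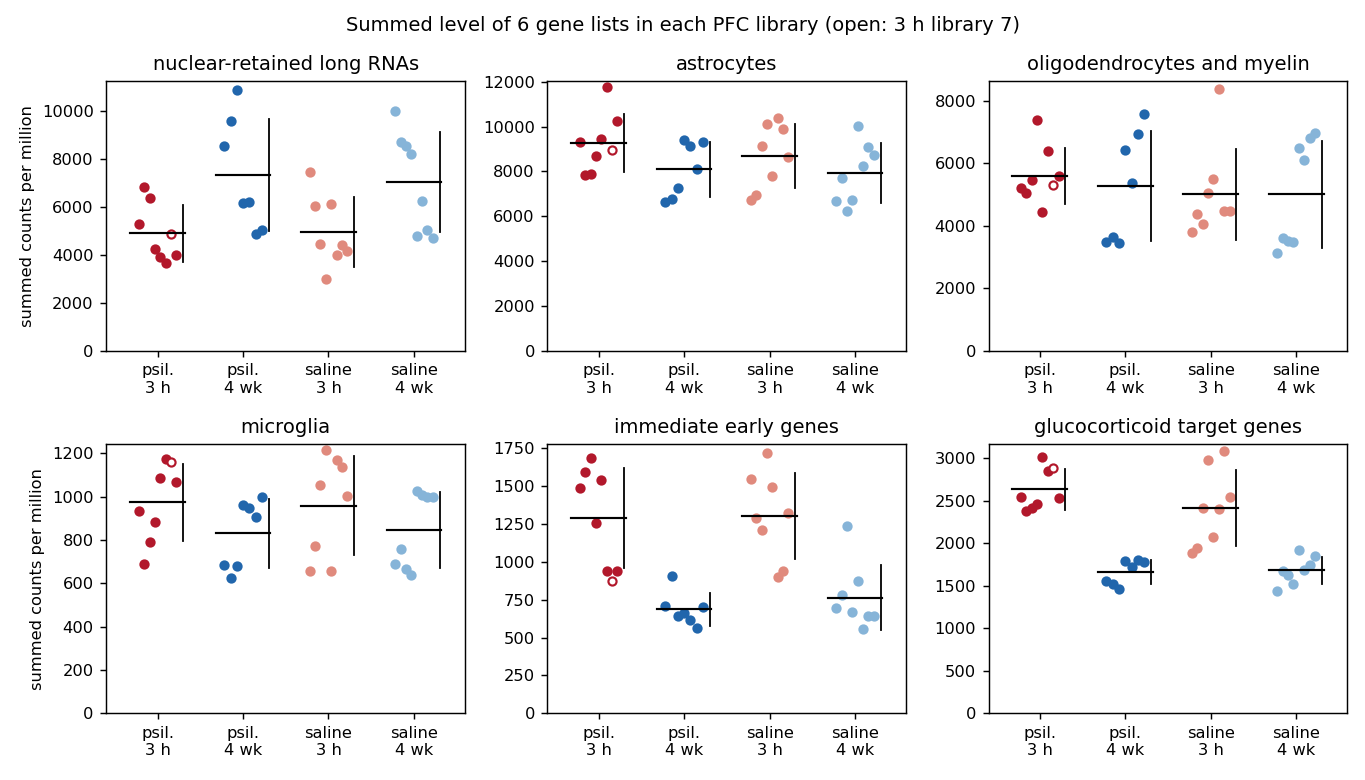
Summed CPM (vertical axes, starting at 0) of 6 gene lists in each PFC library of the 4 groups, with the mean as a bar, the SD as a vertical line and the 3-hour library 7 as an open circle. Glucocorticoid targets are higher in every 3-hour psilocybin library (2383 to 3012 CPM) than in every 4-week psilocybin library (1457 to 1799 CPM), while the 4-week libraries fall into 2 groups by nuclear-retained RNAs and myelin genes.

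No marker of striatum, hypothalamus, mural cells, meninges, choroid plexus, blood or GABAergic interneurons was called in this test, of 18, 16, 11, 14, 11, 8 and 14 tested, and by voom with quality weights 2 meningeal markers and 1 interneuron marker were higher. The meningeal and fibroblast markers were all positive, with a median of 0.50 and sums of 184 to 657 CPM at 3 h and 173 to 456 CPM at 4 weeks. Among 21 excitatory neuron markers 1 was called, a share near the background, Ccn2, a gene of the deepest cortical layer, with a difference of 0.96 ± 0.25 (adjusted p = 0.0108). By voom with quality weights 4 of the 21 were higher, with the offset for gene length and GC content 3, and with 61 libraries or without library 7 2. Within pool C 1 was higher and within pool D 1 was lower. Doc2g and Cdhr1, markers of the olfactory bulb, were called, with differences of -1.91 ± 0.46 (adjusted p = 0.00624) and -1.84 ± 0.48 (adjusted p = 0.0139). In the 4-week library 7 alone Cdhr1 reached 83.7 CPM and Doc2g 20.7 CPM, against at most 13.8 and 2.74 CPM in the other 14, and Cdhr1 was 0.08 within pool C, which that library is not in. With the replicate block by cage neither passed, at -1.41 (adjusted p = 0.0663) and -1.36 (adjusted p = 0.130). Of 14 tested wound healing and immune genes, Cd14 was called (0.79), and it was highest in the 3-hour library 5, at 11.5 CPM. Its value with the replicate block was 0.76 (adjusted p = 0.0723).

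The serotonin receptors, through which psilocin acts, showed 1 called gene of 12, near the 5.96% of all genes at this list size. Htr2a, the 5-HT2A receptor, lay from 37.3 to 92.1 CPM (median 68.9) at 3 h and from 38.6 to 79.3 CPM (median 58.8) at 4 weeks and differed by 0.16 ± 0.16 (adjusted p = 0.601), with a 95% confidence interval from -0.16 to 0.49. Htr2c lay from 4.57 to 27.6 CPM (median 19.0) at 3 h and from 11.9 to 58.6 CPM (median 19.2) at 4 weeks and differed by -0.34 ± 0.28 (adjusted p = 0.513), interval -0.90 to 0.21. Htr1a, an inhibitory receptor, differed by -0.35 ± 0.13 (adjusted p = 0.0879), interval -0.61 to -0.10. The called gene, Htr5b, was near the lower limit of detection, from 0.920 to 2.50 CPM (median 1.17) at 3 h and from 0.328 to 1.30 CPM (median 0.461) at 4 weeks, and its difference of 1.33 ± 0.40 (adjusted p = 0.0347) was 1.26 (adjusted p = 0.0558) without library 7 and 1.29 (adjusted p = 0.0582) with the replicate block by cage. By voom with quality weights none of the 12 was higher and 1 was lower, and with 61 libraries 1 was higher and 1 lower. Htr1b (0.28) and Htr4 (-0.48) did not pass. No subunit of the AMPA, kainate and NMDA receptors (16 tested, median -0.12) and none of the GABA-A receptor (14 tested, median -0.02) was called in this test, and by voom with quality weights 1 subunit of the first set was lower. Nptn and Negr1, cell adhesion genes of neurons, differed by 0.07 ± 0.08 (adjusted p = 0.631) and 0.05 ± 0.11 (adjusted p = 0.827).

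For the remaining lists, the shares over all genes are 2.70% higher and 3.26% lower. Of 34 heat shock chaperones, 4 were higher, and the count was 8 with the offset for gene length and GC content, 8 with 61 libraries and 14 by voom with quality weights. Dnajb5 differed by 0.58 ± 0.09 (adjusted p = 1.34e-05) without overlap, and the others were Hspb8 by 0.71, Dnajb1 by 0.43 and Bag3 by 0.49, and without library 7 Bag3 was 0.44 (adjusted p = 0.0773). Cirbp and Srsf5, 2 of 3 cold-inducible RNA-binding genes, were lower at 3 h, with differences of -0.32 ± 0.10 (adjusted p = 0.0441) and -0.31 ± 0.08 (adjusted p = 0.0116), and Rbm3 stood at -0.13 without passing. With the offset 1 of the 3 was called. Of 18 thyroid hormone responsive genes, 3 were higher: Dio2, the deiodinase that makes active thyroid hormone, Klf9 and Thrsp. Dio2 lay from 215 to 416 CPM (median 273) at 3 h and from 123 to 228 CPM (median 145) at 4 weeks and differed by 0.80 ± 0.17 (adjusted p = 0.00148). Klf9, also a glucocorticoid target, differed by 0.41 and Thrsp, a lipogenic protein, by 0.61. Of 22 glycolysis genes, 3 were higher, Slc2a1, Pfkfb3 (0.40) and Aldoc. A further glycolysis gene was lower with size factors, with the replicate block, with 61 libraries and with the offset, and 2 were lower by voom with quality weights. Lss was the 1 called of 25 cholesterol synthesis genes (-0.27) and Stat2 the 1 called of 25 interferon-stimulated genes (-0.26), both lower at 3 h and both lists near the background. Without library 7 Stat2 was -0.24 (adjusted p = 0.0506). By voom with quality weights, 2 cholesterol genes were higher and 5 lower. None of 22 genes of the integrated stress response was called, with Atf4 at 0.24, and none of 8 mitochondrially encoded genes. With the offset 5 stress response genes and 1 mitochondrially encoded gene were higher. By voom with quality weights 5 stress response genes were higher and 1 was lower. In edgeR 3 were higher with 61 libraries and 1 without library 7.

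Saline-injected mice went through the same 2 harvests, and their time difference was tested in the same fit. The 2 comparisons share no library in their groups, but they share the estimate of the spread and the terms for the pools. In the PFC, 896 genes were called between 3 h and 4 weeks after saline (4.72%), 453 higher (2.39%) and 443 lower (2.34%) at 3 h. Fitted on the 16 saline PFC libraries alone, 310 were called, and fitted on the 15 psilocybin PFC libraries alone, 1317. By voom with quality weights the counts were 1091 after saline and 3355 after psilocybin, and without the weights they were 918 and 1326. Both comparisons called 425 genes, 37.6% of those after psilocybin and 47.4% of those after saline, and all 425 had the same direction, 253 higher and 172 lower. Of the 1131 genes called after psilocybin, 1093 (96.6%) had the same sign after saline, against 74.1% of all tested genes. The median absolute log2 fold change of the 1131 genes was 0.50 after psilocybin and 0.33 after saline, and these genes were chosen on the first of the 2 values.

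**Figure D5:**
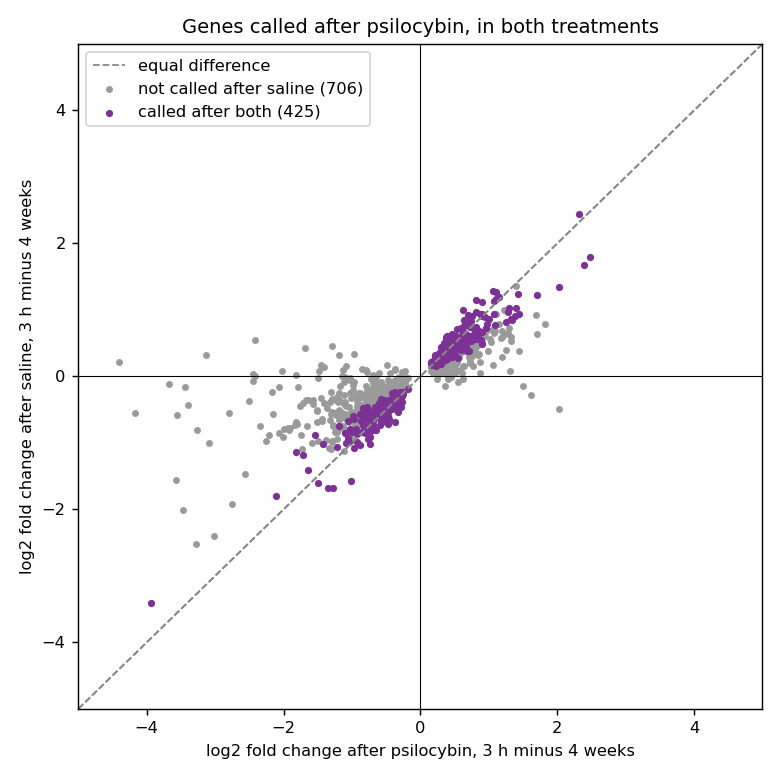
Log2 fold change, 3 h minus 4 weeks, after psilocybin (horizontal axis) and after saline (vertical axis) of the 1131 genes called after psilocybin, with the 425 called in both in purple and the dashed line where both are equal. Of the 1131 points, 1093 lie below 0 on both axes or above 0 on both.

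Genes of several of the same lists were called after saline, while some lists went otherwise. None of the 9 nuclear-retained long RNAs was called after saline (median -0.31). Lower at 3 h were 6 of 16 hypothalamic and ventral forebrain markers (median -1.54), 5 of 25 cholesterol genes and 1 of 18 striatal markers. The share of all genes called lower after saline was 2.34%. Differences between the list counts of the 2 treatments were not tested. Called and higher at 3 h after saline were 14 of 30 glucocorticoid targets, 15 of 28 immediate early genes and 3 of 27 clock genes, and 11 of 34 heat shock chaperones, beside 2.39% of all genes called higher after saline. Fkbp5 lay after saline from 34.9 to 76.4 CPM at 3 h and from 22.2 to 34.2 CPM at 4 weeks, a difference of 0.86 (adjusted p = 1.48e-07). Egr2 differed by 2.44 (adjusted p = 1.45e-07) after saline, Per2 by 1.12 (adjusted p = 2.91e-10) and Bhlhe40 by 0.96 (adjusted p = 2.84e-09), values above those after psilocybin. The values after saline were nearer to 0 for Tsc22d3 at 0.82 (adjusted p = 1.53e-07), for Mfsd2a at 0.91 (adjusted p = 1.53e-07), for Arc at 1.68 (adjusted p = 0.00324) and for Dcx at -0.67 (adjusted p = 0.00698), and none of these differences from psilocybin passed a test, as given next. The 4-week saline library 3 had 250 CPM of Arc, against at most 99.6 CPM in the other 7, and without it 811 genes were called after saline. Without that library the difference after saline was 2.31 (adjusted p = 3.11e-05) for Arc, beside 2.40 after psilocybin, 2.83 (adjusted p = 7.34e-09) for Egr2 and 0.84 (adjusted p = 3.28e-07) for Tsc22d3. Called and higher were then 16 glucocorticoid targets, 16 immediate early genes, 5 clock genes and 10 heat shock chaperones. Without the 3-hour saline library 4 the count was 480 and without the 3-hour saline library 5 it was 1378.

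The test of the difference itself, the time difference after psilocybin minus that after saline, called no gene (0%) in edgeR, with 585 genes at an unadjusted p under 0.05. Without library 7 it called none either, with 742 genes at an unadjusted p under 0.05. Voom with quality weights called 1 gene and DESeq2 called 4. For Fkbp5 the difference of differences was 0.46 (95% confidence interval 0.14 to 0.77, adjusted p = 1.00), for Tsc22d3 0.43 (0.13 to 0.73) and for Egr2 -0.11 (-0.97 to 0.75). The 6 genes with the smallest p-values, none of which passed, were Ucp3, Espl1, Prlr, Dlx4, Hrh1 and Insig1. Ucp3, a mitochondrial uncoupling protein, differed by -0.05 over time after psilocybin and by -0.75 after saline. Insig1, a brake on cholesterol synthesis, differed by -0.10 and -0.46, and Hrh1, a histamine receptor, by 0.15 and 0.55. Espl1, the separase, differed by -0.97 and 0.34. Prlr and Dlx4 had few reads, with at most 2.25 and 0.231 CPM at 3 h after psilocybin.

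In the hypothalamus of the psilocybin-treated mice, 220 genes were called between 3 h and 4 weeks (1.16%), and 77 of them were called in the PFC with the same sign. The difference between the regions' time differences was tested in the same model and called 22 genes (0.116%), 16 of them more positive in the PFC. Both regions came from the same mice, which this test treats as separate samples, and with a replicate block (the cage number within region, not the mouse) in place of the pool it called 7. Voom with quality weights and the mouse as block, with a correlation between the regions of a mouse of 0.0282, called 91. Leaving out 1 library at a time gave between 8 and 36 genes. Arc differed by 2.40 in the PFC and by -0.16 in the hypothalamus (adjusted p of the difference = 0.0394), and Ier5 by 0.69 and -0.30 (adjusted p = 4.37e-05). Bhlhe40 differed by 0.82 and -0.06 (adjusted p = 0.00170). With the replicate block by cage the regional difference of Arc was 2.2 (adjusted p = 0.0729), while Ier5 and Bhlhe40 still passed. For the glucocorticoid targets, 13 of 30 were called in the hypothalamus, all higher at 3 h, with Fkbp5 at 0.88, Tsc22d3 at 0.82 and Plin4 at 2.84. Their regional differences did not pass (adjusted p = 0.177, 0.176 and 0.714). Of 28 immediate early genes, 2 were called in the hypothalamus, against 17 in the PFC, and the difference between these counts was not tested.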

How the data were processed

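Messenger RNA of the PFC (frontal cortex in the sample labels) and of the hypothalamus of 32 mice was sequenced as poly-A selected, stranded libraries, 1 per mouse and region. The authors deposited raw read counts per gene, made with bcl2fastq 2.20.0, STAR 2.7.2b and featureCounts 1.6.2 on GRCm38 according to the submitters' processing notes; only read pairs whose ends mapped to 1 strand were counted, and the setting that matches reads to a gene's strand is not given in the sources used here. All 64 columns matched a sample label. Libraries under 1000000 counted reads were dropped, leaving 62. Over the 49 pairs of libraries within the 2 PFC psilocybin groups, the smallest chi-square per degree of freedom was 4.30, so none of these 15 was a copy of another in its group.

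Counts of 18971 of 55401 genes passed filterByExpr (minimum count 10) and were fitted in all 62 libraries with edgeR 4.0.16 (R 4.3.3), with group (region, treatment and time) and extraction pool as terms, TMM normalisation, robust quasi-likelihood dispersion and Benjamini-Hochberg adjustment at 0.05. CPM are TMM-scaled. Alternatives used limma 3.58.1 and DESeq2 1.42.0, and the script was tested on simulated data. Within a region each library is 1 mouse. In the edgeR fit the spread behind p-values and standard errors was estimated over all 62 libraries, of both regions and both treatments, without a term for the mouse. The replicate number is the cage in the labels, which recurs in every group, and a replicate block by cage within region (which contains the pool) was an alternative. The deviations of same-numbered PFC psilocybin libraries correlated above 0.1 in 5 of 7 pairs, and in 2 of 7 once the pool was removed.

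The comparison and the gene lists were chosen with earlier results of these data known. Genes were named by a rule: among called genes with an ordinary symbol, the 12 of smallest p in each direction, the 4 members of each list with the smallest p, the 6 genes with the smallest p for the difference between treatments, and Htr2a, Htr2c, Htr1a, Bdnf, Nptn and Negr1. Further list members were named as examples after their values were seen. Promoters came from RefSeq (GRCm38.p6).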

Additional observations from a re-analysis of the deposited data

Results flagged for a closer look

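Among 242 groups of libraries examined (the PFC psilocybin values of a gene or of a list at 1 time), 34 had a lowest or highest library far from the others by Dixon's criterion, which chance alone gives in about 1 of 20 groups. The 3-hour library 7 accounted for 16 of the 34, the 4-week library 7 for 5, the 4-week libraries 2 and 6 for 4 each, and the other 5 libraries concerned for 1 each.

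The 3-hour library 7 was high for Mfsd2a (53.0 CPM), Cirbp (72.8 CPM), Col5a1 (20.05 CPM) and Doc2g (1.98 CPM). It was low for Dcx (15 CPM), Klf9 (206 CPM), Htr1b (4.43 CPM), Tm7sf2 (11.5 CPM), Gabrb1 (112 CPM), Nptn (482 CPM) and Negr1 (134 CPM). Its summed levels were high for the collagens (896 CPM), glycolysis (12088 CPM), thyroid hormone responsive genes (4044 CPM) and blood markers (957 CPM) and low for GABA-A receptor subunits (1191 CPM). The 4-week library 7 was high for the olfactory markers Doc2g (20.7 CPM) and Cdhr1 (83.7 CPM), for the summed olfactory list (606 CPM) and for interneuron markers (1983 CPM), and low for summed collagens (472 CPM).

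The 4-week library 2 was high for Bdnf (40.0 CPM), Hrh1 (21.0 CPM), summed immediate early genes (908 CPM) and endothelial markers (735 CPM). The 4-week library 6 was high for Htr4 (3.06 CPM), Htr2c (58.6 CPM) and the summed striatal (1801 CPM) and mural (296 CPM) markers. Single values were high for Nemp2 in the 3-hour library 3 (7.5 CPM), Cd14 in the 3-hour library 5 (11.5 CPM) and the 4-week library 8 (4.30 CPM), and Dlx4 in the 3-hour library 2 (0.23 CPM), and low for Nr1d1 in the 4-week library 5 (69.0 CPM).

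The time difference after psilocybin differed between the PFC and the hypothalamus in 4 of the named genes (edgeR quasi-likelihood test). The log2 difference between the regions was 2.56 for Arc, 0.99 for Ier5, 0.88 for Bhlhe40 and 1.05 for Thrsp, each higher in the PFC. With the replicate block by cage the adjusted p was 0.0729 for Arc and 0.0723 for Thrsp, and Ier5 and Bhlhe40 still passed.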

How the results depend on the processing

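The 1131 genes called after psilocybin became 552 with no filter on low counts, 666 without extraction pool, 3355 by voom with quality weights and limma (the paper's method, but on 62 libraries, while the paper left out a further sample), 3375 by that method on 61 libraries, 2109 when an offset corrected for GC content and length, 1920 with that offset and the replicate block, 314 within pool C and 257 within pool D. They were 2143 with 61 libraries, without library 5 of the 4-week psilocybin hypothalamus. Leaving out 1 library at a time gave 706 to 1292. The 896 genes called after saline became 425 with no filter, 521 with all 64 libraries, 1571 with 61 libraries, 1673 with the offset, 1620 with offset and replicate block and 310 with only the groups compared, and 480 to 1378 without 1 library. The difference between treatments called 4 genes with DESeq2, 1 by voom with quality weights on 62 or 61 libraries and 0 to 0 without 1 library. The 22 genes of the regional difference became 4 with no filter, 98 with DESeq2, 91 by voom with quality weights (95 on 61 libraries), 11 without extraction pool, 11 with all 64 libraries, 7 with the replicate block and 8 to 36 without 1 library. By voom without quality weights the count after psilocybin was 1326, against 3355 with them. The cause of the remaining changes was not tested, beyond fewer samples within a pool.

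With the replicate block, in which the cage number within region replaces the pool, 987 genes were called after psilocybin, 795 after saline and 0 for the difference between treatments. In the time difference after psilocybin it ended, of the genes named by the rule, the calls of Doc2g, Cdhr1, Htr5b, Col5a1, Col2a1, Nr1d1 and Cd14 and no other.

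Of 70 called genes named, 28 stayed called under all 32 settings and 42 lost the call in at least 1. The sign turned for Nptn (-0.086 with all 64 libraries, -0.000197 within pool D), Cdhr1 (0.076 within pool C), Htr2c (0.14 within pool C) and Negr1 (-0.052 within pool D). The values within a pool, with only the PFC libraries (1001 genes) and by voom without quality weights (1326 genes) or on 61 libraries were chosen after seeing the data, as were the settings under which list members were counted.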
